A study of Sus scrofa with 3 samples.

Results

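miR-184 is a microRNA (miRNA), a small RNA of about 22 nt cut from a hairpin transcript, and it is described here across 3 small RNA libraries of pig liver. Its reads were taken as every line of the deposited tables whose representative hairpin is mir-184 of pig or another mammal, which gave 8 lines, 6 of them in the fetal library, for 1 of 677 hairpin names. miR-184 was chosen by its read counts in these same 3 libraries, high in fetal liver and low later, so its levels are given as a description, with no test. All of the liver is from males of the Jinhua, a pig breed of China, taken on day 90 of gestation (E90), on day 30 after birth (P30d, weaning) or as adults of 7 years (P7y). No treatment or altered genotype is named. The labels name 3 pigs per stage and hold 1 library per stage, without saying whether RNA was pooled, so no difference here has a replicate check and each comparison is between libraries, not conditions.

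A miRNA is made when the stem of its hairpin is cut into a short duplex with a 5p and a 3p arm. One arm is then usually kept in an Argonaute protein, where bases 2 to 8, the seed, pair with target messages. miR-184 is conserved from insects to mammals, and its 3p arm is the functional product. It is best known from lens, cornea and skin epithelium, from brain and from pancreatic islets, where Argonaute 2 is among its targets, and in skin and cornea it is known to counter miR-205. It is not among the miRNAs usually listed as typical of liver.

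The pig hairpin is shown first because both arms and the ends of their reads are read from it. It is 83 nt long and lies at chr7:53883626-53883708 on the plus strand (Sscrofa10.2), with the 5p read at positions 15 to 36 and the 3p read at positions 52 to 73 in capitals.
Pig mir-184 hairpin: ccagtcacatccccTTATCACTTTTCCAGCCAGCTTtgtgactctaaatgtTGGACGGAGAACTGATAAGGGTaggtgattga
In the 4 sequences that follow, capitals mark the seed in the first 3 and the base that differs from pig in the platypus entry.
Pig miR-184-3p: tGGACGGAgaactgataagggt
Pig miR-184-5p, read at E90: tTATCACTtttccagccagctt
Mouse miR-184-5p entry: cCTTATCActtttccagccagc
Platypus miR-184-3p entry: tggacggagaaTtgataagggt
The predicted fold of the pig hairpin in the deposited table had a free energy of -38.7 kcal/mol, against a median of -41.1 over 225 known pig hairpins read at E90, of which 137 were lower. Its GC content was 45.8%. The E90 table groups the pig hairpin with those of other mammals, 9 entries in all. In the RefSeq genes of a later build, Sscrofa11.1, MIR184 lies within the long non-coding RNA gene LOC106507693, and the nearest protein-coding genes are RASGRF1 and ANKRD34C. Whether it falls in an exon or an intron of that RNA was not analysed here. No other hairpin, named or predicted, lay within 1 megabase of it in the 3 tables. None of the other lines among 5500 shared bases 2 to 8 with miR-184-3p or with the pig 5p read, and 1 shared those of the mouse 5p entry. The search covered the representative read of each line, so it shows only that no other representative read had the seed of miR-184-3p.

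**Figure D1:**
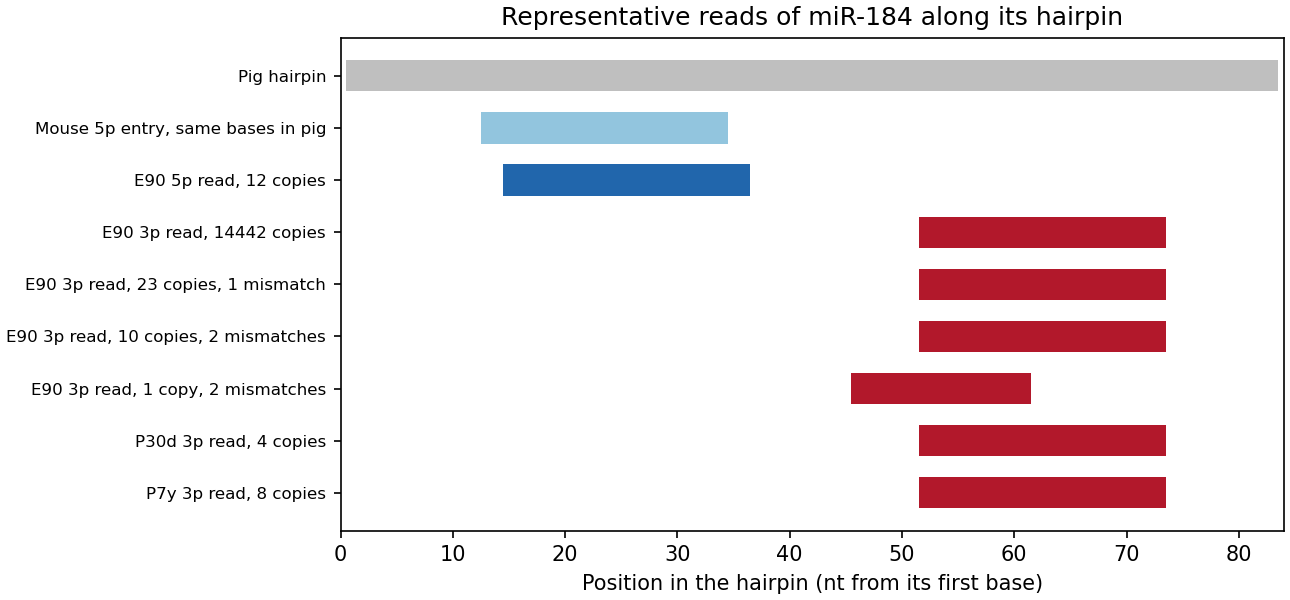
Representative reads of miR-184 along its hairpin, in nt from the first base. Red bars are 3p reads and the dark blue bar the 5p read, each with its copies; the light blue bar is the place of the mouse 5p entry, 2 nt before the pig 5p read, and the full-length 3p reads of all 3 libraries span positions 52 to 73.

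The 3 libraries held 9243601 reads of named miRNAs at E90, 3622993 at P30d, and 9920207 in the P7y library, and levels are counts per 1000000 of these reads (CPM). A count of 0 allowed up to 0.325, 0.828 and 0.302 CPM in that order, which is the limit of 3 reads. All intervals are 95% and cover counting error only, and PCR copies of a molecule are counted as separate reads. As a check of the tissue, miR-122-5p, the hepatocyte miRNA, had 128017, 213802 and 37869.7 CPM in the E90, P30d and P7y libraries, the order in which sets of 3 values are given from here on.

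miR-184-3p was an abundant miRNA in the fetal library and had few reads in both later ones. It had 29543 reads at E90, but 19 at P30d and only 8 at P7y. These are 3196 CPM (exact Poisson interval 3160 to 3233), 5.24 CPM (3.16 to 8.19) and 0.806 CPM (0.348 to 1.59). The E90 library thus stood far above the others, and the intervals of P30d and P7y did not overlap either. miR-184-3p made up 0.320% of miRNA reads at E90. Of its CPM summed over the 3 libraries, the E90 library held 99.8%, P30d 0.164% and P7y 0.0252%. Nearly all of its summed level thus lay in the fetal library, though reads were present at every stage. In whole liver, fewer cells of a type and less RNA per cell cannot be told apart.

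**Figure D2:**
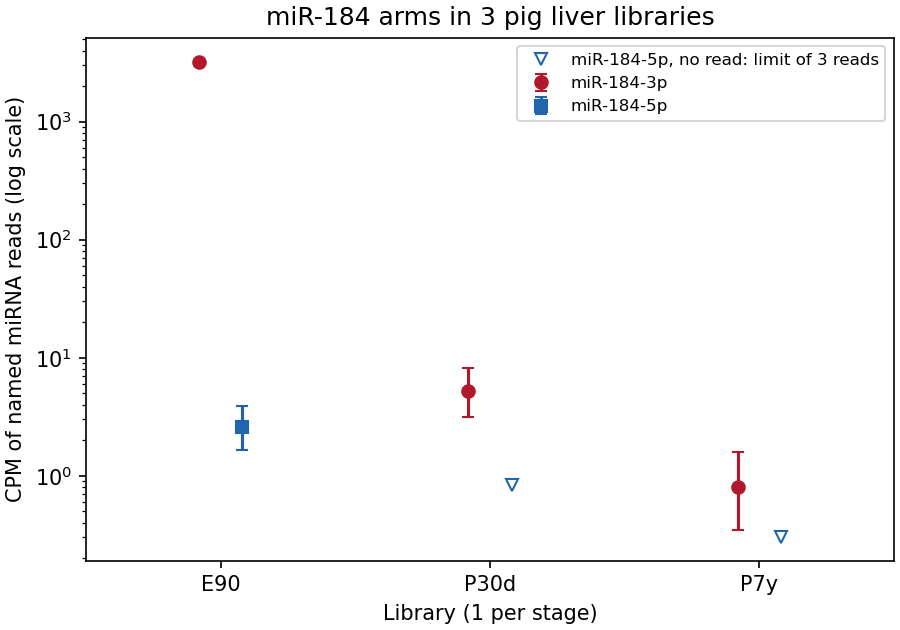
CPM of the arms of miR-184 (log scale) in the E90, P30d and P7y libraries, with exact Poisson 95% intervals as bars, and open triangles for the limit of 3 reads where no read was found. miR-184-3p falls from 3196 to 5.24 and 0.806 CPM, and miR-184-5p has reads at E90 alone.

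By rank, miR-184-3p was 38 of the 782 mature miRNAs read at E90, so that 4.73% of them were more abundant. It was 363 of 736 at P30d, where 3 others had the same count, and 454 of 564 at P7y, where 16 others had. Its neighbours in the E90 order had other profiles. miR-25-3p, of a cluster linked to proliferation, held 3338 CPM and miR-26b-5p held 3280, and just below were miR-450c-5p with 29538 reads and miR-199a-3p, known from mesenchymal cells, with 3012 CPM. miR-184-3p and miR-450c-5p differed by fewer reads than counting error. All 4 stayed far above it later: at P30d miR-25-3p held 1197 CPM, miR-26b-5p 9202, miR-450c-5p 1601 and miR-199a-3p 6113. At P30d miR-184-3p stood instead beside miR-10b-3p, miR-1271-3p and miR-338-3p, each with 19 reads, and miR-101b-5p with 18. At P7y it stood among miRNAs of 8 reads, such as miR-155-3p, miR-16-3p, miR-18a-3p and miR-1932-5p.

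**Figure D3:**
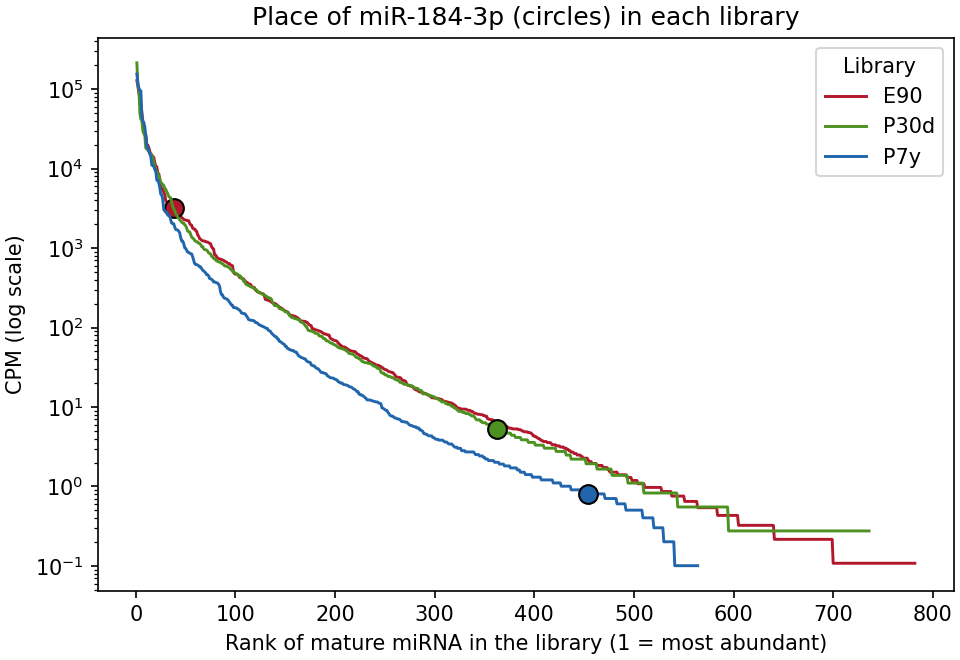
CPM (log scale) of every mature miRNA with a read against its rank in the E90, P30d and P7y libraries, 1 line each. Circles mark miR-184-3p, which lies at rank 38 at E90, 363 at P30d and 454 at P7y.

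Between the fetal and the weaning library, on either side of birth, miR-184-3p was lower at P30d, with a log2 ratio of -9.25 (exact conditional binomial interval -9.98 to -8.61), or 609-fold (390 to 1012). Of the 319 miRNAs that averaged 10 CPM or more, 34.5% were lower by 2-fold or more with an interval off 0, and miR-184-3p had the lowest ratio of all. The next lowest were miR-4331-5p, named after its value was seen, at -6.76 and miR-542-3p at -6.55. The median log2 ratio of the 319 was -0.10, and relative to it miR-184-3p was at -9.15. Since the miRNA was picked for this difference, its place gives no independent support.

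From P30d to P7y miR-184-3p went on to a lower level, by a log2 ratio of -2.70 (-4.10 to -1.44), or 6.50-fold (2.72 to 17.2). In this pair 56.1% of the 319 miRNAs were lower by the same rule and the median was -1.38, so relative to the typical miRNA miR-184-3p was at -1.32. Scaling with TMM factors moved the median of all miRNAs by 1.10, and the split of 40 higher and 179 lower became 88 and 107; miR-184-3p was then at -1.61 (-3.01 to -0.35). This ratio rests on 19 and 8 reads, and on copies of the representative read alone, 4 and 8, it was -0.37 with an interval that spans 0 (-2.27 to 1.81).

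From E90 to P7y the log2 ratio of miR-184-3p was -11.95 (-13.16 to -10.97), again the lowest of the 319, of which 51.1% were lower. This is 3963-fold (2011 to 9181). Relative to the median of -1.09 it was at -10.86. TMM scaling moved that median by 1.03, the split of 39 higher and 163 lower became 86 and 107, and the ratio became -10.92. These pairs share libraries, so their ratios are not independent of each other.

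**Figure D4:**
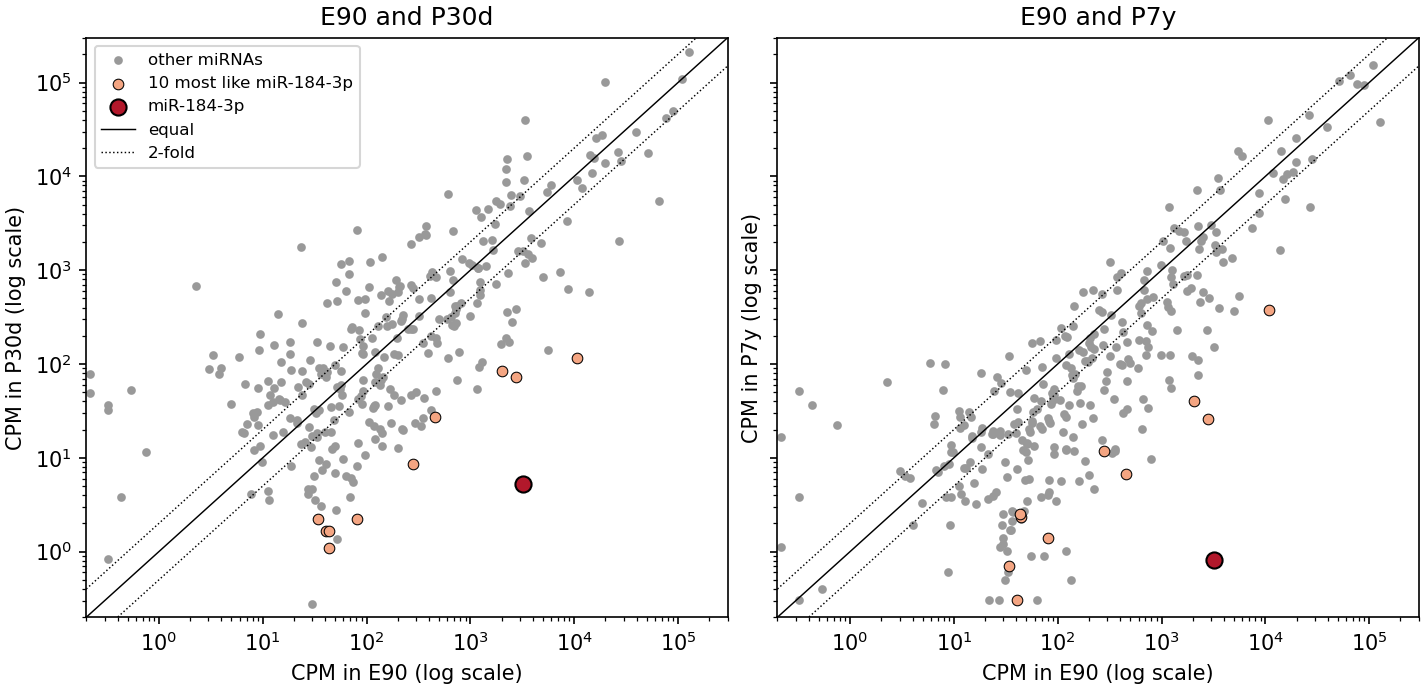
CPM at E90 (x, log scale) against CPM at P30d and at P7y (y, log scale) for the 319 miRNAs of 10 CPM or more on average, with miRNAs of no read drawn at the limit of 3 reads and 2-fold lines dotted. miR-184-3p is the red point, at 3196 CPM on the x axis and at 5.24 and 0.806 CPM on the y axes, and the orange points are the 10 miRNAs of most like pattern.

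The 5p arm of miR-184, the strand that is usually discarded, was read only in the fetal library. It had 24 reads at E90 and 0 in each of the P30d and P7y libraries. At E90 this was 2.60 CPM (1.66 to 3.86). That is 3.14-fold the limit of 3 reads at P30d and 8.59-fold that limit at P7y. The exact intervals, which also cover the error of the 24 reads, begin at 2.36-fold and 6.46-fold. With 19 and 8 reads of the 3p arm at the later stages, a 5p arm at its E90 proportion was not detectable at this depth. At E90 99.92% of miR-184 reads came from the 3p arm (Clopper-Pearson, exact, 99.88 to 99.95), or 1231 reads for each 5p read. At P30d it held 19 of 19 reads (82.4 to 100 by the same method) and at P7y 8 of 8 (63.1 to 100). The limit of 3 reads for the 5p arm is 15.8% and 37.5% of these reads. Strong use of one arm was common: of 240 hairpins with at least 100 reads at E90, 201 had reads of both arms, with a median of 98.2% on the dominant arm. Among those 201, 24 were more uneven than miR-184. The 3p arm was the dominant one in 106 of the 240.

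The representative 3p read, as the tables choose it, was the same in every library. It matched the pig miRBase entry from its first to its last base at E90, P30d and P7y, with no base gained or lost at either end. At E90 the representative read matched its miRBase entry, of pig or another mammal, end to end for 97 of 194 arms. The 194 were the arms of known pig hairpins with at least 100 reads and 1 place in the table. One read was also the representative in all 3 libraries for 143 of 291 arms of known pig hairpins, or 49.1%. The exact read had 14442 copies at E90, 49.0% of the reads of the pig entry (48.4 to 49.5), against a median of 50.7% over the 194 arms. It had 4 of 19 reads at P30d (21.1%, 6.05 to 45.6) and 8 of 8 at P7y (63.1 to 100). The remaining reads are other lengths or carry mismatches, and the tables do not list them one by one.

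The 5p read did not begin where the mouse entry does. It started 2 nt later and ended 2 nt later than mouse miR-184-5p, in 12 copies of 24 reads. This read thus has another seed than the mouse entry, as the sequences above show. The ends of the remaining 5p reads are not known. In the predicted fold of the pig hairpin, the 3p read ran 4 nt past the base opposite the start of the pig 5p read, and 2 nt past the base opposite the mouse start. Drosha and Dicer, the enzymes that cut the hairpin, typically leave a short overhang at the 3′ ends of the duplex.

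Reads with a mismatch were 10.7% of the 3p reads at E90 (10.3 to 11.1), where 18.6% of all named miRNA reads had one. For the pig entry alone the share was 10.5%, against a median of 12.2% over the 194 arms, of which 84 were lower. At P30d they were 6 of 19 (31.6%, 12.6 to 56.6), against 13.9% in that library, and at P7y 0 of 8, which allows up to 37.5%, against 21.7%. Some E90 reads were assigned to other species. The platypus entry, which differs from pig by C12T counted from the 5′ end of the 3p arm, was given 49 reads, and the opossum hairpin 4, in all 53 reads or 0.179% of the 3p total. The most common of them had 23 copies of the platypus sequence, against 14442 of the pig sequence. The tables put it at the pig hairpin and at a place on the minus strand of another scaffold, with its reads divided between them. A further 10 copies had C12T and T22A. The opossum read, a 16 nt fragment with A3T and G5T against pig, was the only one that began elsewhere, 6 nt before the 3p arm. No such line appeared at P30d or P7y, where all miR-184 reads were given to the pig entry, and at 19 and 8 reads a share as small as that at E90 was not detectable.

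The miRNAs most like miR-184-3p were sought among the 319 by the distance between their 3 shares of summed CPM, a measure over 3 libraries only. Rarer miRNAs, under the filter, were not ranked, though some had a similar profile, such as miR-216b-5p with 27.2, 0.828 and 0 CPM. miR-503-5p, a miRNA linked to arrest of the cell cycle, was nearest of the 319 at a distance of 0.0411, with 2780, 72.6 and 26.2 CPM. miR-382-5p, of the imprinted DLK1-DIO3 region, followed at 0.0504, with 80.9, 2.21 and 1.41 CPM. miR-412-5p, of the same region, had 40.9 and 1.66 CPM and no read at P7y. miR-542-3p, from the same cluster as miR-503, had 10738, 115 and 375 CPM. The other 6 were miR-409-5p, miR-379-5p, miR-483-3p, miR-551a-3p, miR-382-3p and miR-4286-3p, at distances of 0.0693 to 0.0999. Their representative E90 reads are shown for the nearest 4, with bases 2 to 8 in capitals, because none of the 10 has the seed of miR-184-3p. The miR-382-5p read starts 1 nt before the pig entry, so its capitals are bases of the read.
miR-503-5p: tAGCAGCGggaacagtactgcag
miR-382-5p: gAAGTTGTtcgtggtggattcg
miR-412-5p: tGGTCGACcagttggaaagtaat
miR-542-3p: tGTGACAGattgataactgaaa
None of the 10 had as small a share at P30d as miR-184-3p, though those that were rare at E90, such as miR-412-5p, had later levels of a few reads too. The E90 share of miR-503-5p was 96.6%, against 99.8% for miR-184-3p and a median of 34.8% over the 319, of which 19 had over 90% at E90. With profiles compared as centred log2(CPM + 1), 7 of the 10 were again among the nearest 10, and miR-503-5p was again first. Above a mean of 100 CPM only 4 of the 10 were tested, and these 4 were among the nearest 10 there.

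**Figure D5:**
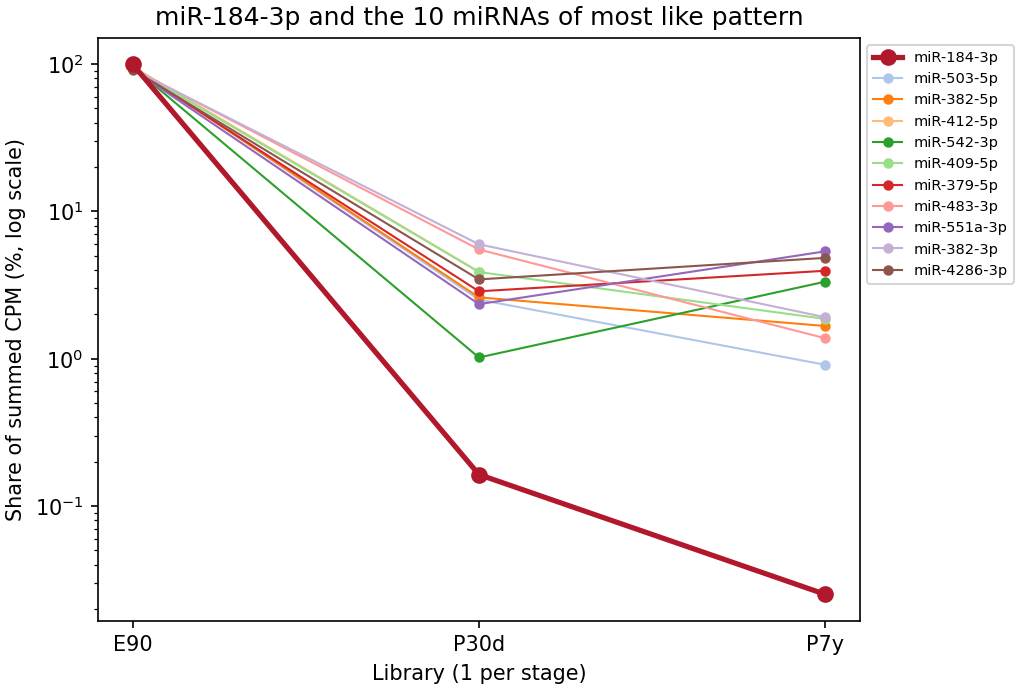
Share of summed CPM (%, log scale) in each library for miR-184-3p (thick red line) and the 10 miRNAs of most like pattern (thin lines). miR-184-3p has the highest share at E90 (99.8%) and the lowest at P30d (0.164%), and miR-503-5p comes next at E90 (96.6%); miR-412-5p has no read at P7y and its line ends at P30d.

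Other miRNAs known from fetal tissue were mostly lower after birth too, and none of the 12 tested by as much as miR-184-3p. The list named miR-127, miR-483, miR-379, miR-409, miR-410, miR-411, miR-495, miR-503, miR-424 and miR-542, and was chosen with earlier results of these data known. Of its 19 mature miRNAs with a read, 12 averaged 10 CPM or more, and a filter on the mean can pass members that are high at E90 alone. From E90 to P30d 11 of the 12 were lower, beside 34.5% of all 319, and 1 was higher, beside 33.5%, with a median of -3.30 beside -0.10. The exception, named after its value was seen, was miR-542-5p, the minor arm of miR-542, with 21.7 CPM at E90 and 57.4 at P30d. From E90 to P7y all 12 were lower under CPM, TMM and DESeq2 scaling. Of the 319, 51.1% were lower under CPM and 33.5% under each of TMM and DESeq2 scaling. miR-127-3p, an abundant member from the DLK1-DIO3 region, had 2728, 385 and 233 CPM. miR-409-5p of the same region had 2039, 83.9 and 40.3.

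miRNAs that share tissues with miR-184 did not move as one group. The eye and skin list had reads for 7 mature miRNAs, none at 0 in any library, and made up 0.318%, 0.185% and 0.0890% of miRNA reads. Most of it was miR-204-5p, a miRNA of lens, retina and cornea, with 2866, 1604 and 501 CPM, close to miR-184-3p at E90 alone. miR-205-5p, the skin and corneal miRNA that miR-184 is known to counter, was rare, with 81, 1 and 69 reads, or 8.76, 0.276 and 6.96 CPM. miR-31-5p had 52.4, 1.38 and 5.95 CPM, and miR-203a-3p, a miRNA of skin, had 251, 235 and 375. From E90 to P30d 1 of the 3 members that passed the filter was lower and 0 higher, beside 34.5% and 33.5% of all 319. The lower one, miR-31-5p, passed only through its level at E90, and miR-205-5p, with a similar drop, did not pass. So few members cannot be set against these shares. The part of such cells in the level of miR-184 was not tested.

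Most of the other epithelial miRNAs tested were lower after E90. Of 7 tested members of the miR-200 and miR-183 clusters, 5 were lower and 2 higher at P30d, beside 34.5% and 33.5% of all 319, and the list made up 0.183%, 0.0468% and 0.0344% of miRNA reads. miR-183-5p had 421, 32.6 and 30.3 CPM, miR-182-5p had 469, 52.2 and 66.4, and miR-200b-3p had 613, 115 and 178. miR-200a-3p went the other way at P30d, with 86.1, 187 and 37.6 CPM. At P7y 7 of the 7 were lower than at E90 under CPM, beside 51.1% of the 319, and 5 under TMM scaling, beside 33.5%. Of the 15 members with a read, 2, 3 and 5 were at 0 in the libraries in turn, and their part in the level of miR-184 was not tested.

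Markers of pancreas, a tissue in which miR-184 is known, had their highest summed share in the fetal library, though not each member did. The list of miR-375, miR-7, miR-216a, miR-216b and miR-217 made up 0.205%, 0.0417% and 0.0891% of miRNA reads. miR-375-3p, the miRNA of islet cells, had 1289, 104 and 706 CPM, so unlike miR-184-3p it was high again at P7y, and miR-7-5p had 702, 256 and 177. The other arm, miR-7-3p, was highest at P30d, with 13.0, 54.9 and 7.76 CPM. The miRNAs of pancreatic acinar cells were rare, did not pass the filter, and were lower after E90. miR-216b-5p had 251, 3 and 0 reads, with log2 ratios from E90 of -5.04 at P30d and -6.49 at P7y. miR-217-5p, named after its values were seen, had 152, 2 and 0, with ratios of -4.90 and -5.76. In both P7y ratios the count of 0 was set to 3 reads. Of the 7 members with a read, none was at 0 at E90, 2 were at P30d and 4 at P7y. Of the 3 that passed the filter, 2 were lower and 1, miR-7-3p, higher at P30d, where 34.5% and 33.5% of all 319 were. The part of pancreatic cells in the level of miR-184 was not tested.

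Neural miRNAs were rare at every stage, with 0.0161%, 0.0191% and 0.00429% of miRNA reads over 16 members, of which 1, 2 and 8 were at 0. The most abundant was miR-128-3p, which is also expressed outside the brain, with 93.1, 157 and 12.9 CPM. miR-137-3p had 204, 18 and 0 reads, miR-219-5p had 149, 30 and 41, and miR-9-5p had 48, 17 and 144. Striated muscle miRNAs made up 0.0174%, 0.0383% and 0.00830%, and of 7 members 0, 1 and 3 were at 0. The part of either tissue in the level of miR-184 was not tested.

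Blood cell miRNAs are given because the fetal liver makes blood. The erythroid list made up 0.724%, 0.303% and 0.182% of miRNA reads, none of its 6 members was at 0, and 3 of 4 tested members were lower at P30d, beside 34.5% of the 319. miR-451-5p, the main miRNA of red cells, had 3941, 1339 and 1223 CPM, and miR-486-5p had 1147, 445 and 406. The arms of miR-144 differed: miR-144-3p had 978, 1195 and 123 CPM, and miR-144-5p had 1168, 54.7 and 66.9. The leukocyte list, with 1 of 7 members at 0 at P30d, made up 0.0980%, 0.345% and 0.0946%, with 2 of 5 higher and 1 lower at P30d, beside 33.5% and 34.5%. The part of blood cells in the level of miR-184 was not tested. The hepatocyte list made up 31.4%, 36.8% and 28.9%, with 6 of 11 higher and 0 lower at P30d, beside 33.5% and 34.5%. Its direction from E90 to P7y turned with the scaling, as the shares over all 319 moved too. CPM gave 1 of the 11 higher and 3 lower, beside 12.2% and 51.1% of the 319. TMM gave 5 and 0, beside 27.0% and 33.5%.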

How the data were processed

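Small RNA of 3 liver libraries, 1 per stage, was used as deposited, 1 table per library. Per the labels, RNA (integrity number over 6.0) was cut from a gel at 14 to 40 nt and sequenced on a Genome Analyzer II. Per the file headers, reads were mapped to miRBase hairpins of pig and other mammals, and hairpins to the genome. The submitters' processing notes name Sscrofa10.2; for the aligner, trimming and miRBase release, each is not given in the sources used here. The deposited reads per arm are expected counts, because a read mapping to several hairpins is divided among them. Deposited copies of a representative read, reads per hairpin and mismatches are counts. The deposited GC percent and free energy belong to the predicted hairpin. The deposited base scores were not used for any printed value.

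Expected counts were rounded after summing them per mature miRNA. There were 1005 names, of which 23 joined others that share a representative read of at least 18 nt holding over 50% of the reads of each, and 14 rounded to 0, which left 968. CPM are per 1000000 reads of named hairpins, so predicted hairpins were left out. Called means an absolute log2 ratio of at least 1 with a 95% interval off 0, among 319 miRNAs averaging 10 CPM or more; a count of 0 was set to 3 reads. With 1 library per stage there is no spread to test against, and no p-value is given. The comparison was tested on simulated data. These held counting error alone, so they say nothing on the spread between pigs of a stage.

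Named miRNAs were both arms of miR-184, the 2 neighbours on each side in the order of CPM, the 10 of most like pattern, from each list at most 4 members by mean CPM, and miR-122-5p. Members and lists were chosen with earlier results of these data known. Hairpin positions are those of the tables; the chromosome and neighbouring genes come from RefSeq (Sscrofa11.1), matched by the symbol MIR184. The scaling was also done with edgeR 4.0.16 (TMM) and DESeq2 1.42.0 (median of ratios), and other alternatives were other totals, other filters, reads without a mismatch, representative reads only and known pig hairpins only. Tools were R 4.3.3, SciPy 1.17.1, matplotlib 3.10.9, Python 3.11.15, NumPy 2.4.6 and pandas 2.3.3.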

Additional observations from a re-analysis of the deposited data

How the results depend on the processing

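No paired analysis was possible because each stage has 1 library. The log2 ratios of miR-184-3p stayed negative under every alternative run. On copies of the representative read they were -10.50 from E90 to P30d, -0.37 from P30d to P7y and -10.87 from E90 to P7y. From E90 to P7y TMM gave -10.92 and DESeq2 scaling -10.90. At E90 its level was 3507 CPM on reads without a mismatch, 3141 with predicted hairpins in the total and 2827 on representative reads, and at P30d 1.95 CPM on representative reads. Without a filter, 193 miRNAs were called higher and 196 lower from E90 to P30d, 64 and 338 from P30d to P7y, and 89 and 342 from E90 to P7y. At a mean of at least 100 CPM these were 58 and 56, 28 and 92, and 21 and 82; fewer or more miRNAs are tested there by construction. From P30d to P7y TMM gave 88 higher and 107 lower and DESeq2 scaling 88 and 110, and from E90 to P7y 86 and 107, and 87 and 107; the cause was not tested. Of the 10 most like miRNAs, 4 remained at the 100 CPM filter. Depth limits the later stages: 1 read is 0.276 CPM at P30d and 0.101 at P7y.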
